A study of Mus musculus with 6 samples.

Results

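The galectin family of splenic natural killer (NK) cells was followed through 6 genes, Lgals1, Lgals3, Lgals4, Lgals8, Lgals9 and the galectin-3 binding protein gene Lgals3bp, picked by symbol out of 55291 gene names in the deposited count table. The libraries came from 3 S303/7A mice and from 3 wild-type (WT) mice. S303/7A mice carry alanine in place of the serines at positions 303 and 307 of HSF1, heat shock factor 1, which is the transcription factor of the heat shock response. All 6 mice were at steady state, and the labels give no age, strain or batch. DX5 magnetic beads enriched the spleen cells before CD49b+, CD3e- cells were sorted, and 1 mouse gave 1 library. The family was proposed with the comparison of these genotypes already known, in which Lgals3 differed, so the genotype values of its genes are given as a description.

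Galectins are lectins that bind beta-galactosides on glycoproteins and glycolipids. They are made in the cytosol without a signal peptide and reach the cell surface by a route outside the classical secretory pathway, where they cross-link glycans of receptors, and inside the cell they gather on glycans exposed by damaged endosomes and lysosomes. Galectin-1 acts as a dimer of single lectin domains, galectin-3 joins its lectin domain to a tail through which it forms oligomers, and galectin-4, galectin-8 and galectin-9 each carry a pair of different lectin domains in 1 chain. Lgals3bp encodes a secreted scavenger receptor glycoprotein that galectin-3 binds.

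Lgals3 was higher in S303/7A NK cells, about 4-fold, and the other members were not called. All 6 members passed the filter on low counts. A gene is described as called when its adjusted p was under 0.05 in edgeR's quasi-likelihood test over 16480 tested genes. In that fit 0.364% of tested genes were called, 0.133% higher and 0.231% lower. Of the members 1 was called higher, 0 lower and 5 in neither direction. At an unadjusted p under 0.05 there were 2 members, against 9.68% of all tested genes. The median log2 fold of the members was 0.06, beside 0.01 over all tested genes. Nothing is read from these shares, since the members were proposed with this comparison known.

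The promoter windows of Lgals3 and Lgals4 are shown because these were the members whose genotypes did not overlap. They are from RefSeq on GRCm38.p6, 300 bases on the plus strand, chr14:47373610-47373909 for Lgals3 and chr7:28833544-28833843 for Lgals4, and capitals mark the GC box letters GGGCGG or their reverse complement.
Lgals3: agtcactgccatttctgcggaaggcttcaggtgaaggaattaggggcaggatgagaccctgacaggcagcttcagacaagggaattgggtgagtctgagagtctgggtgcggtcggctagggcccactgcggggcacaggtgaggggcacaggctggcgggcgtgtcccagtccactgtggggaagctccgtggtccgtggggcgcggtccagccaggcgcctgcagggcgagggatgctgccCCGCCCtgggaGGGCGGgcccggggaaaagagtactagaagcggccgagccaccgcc
Lgals4: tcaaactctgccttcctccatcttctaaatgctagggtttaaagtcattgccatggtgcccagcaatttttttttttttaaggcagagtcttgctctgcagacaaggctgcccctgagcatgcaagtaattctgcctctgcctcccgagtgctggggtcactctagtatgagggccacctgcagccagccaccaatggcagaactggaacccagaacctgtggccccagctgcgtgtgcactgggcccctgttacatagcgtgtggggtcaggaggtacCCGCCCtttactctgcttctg
Windows were at hand for 5 of the 6 members, all but Lgals1. The heat shock element, the sequence that HSF1 binds, was searched as a pair of inverted units, GAANNTTC or TTCNNGAA, and as 3 such units in a row, the same letters followed after NN by GAA or TTC. These letters were on neither strand of any of the 5 windows. The windows of Lgals3 and Lgals8 lie inside the GENCODE spans given below, past the starts of those spans, so these starts were not searched. Of 32851 promoter windows of the same length 0.603% held the 3-unit form and 15.1% the shorter one. The AP-1 letters TGANTCA, found in 7.81% of windows, were also in none of the 5. GC boxes were in the windows of Lgals3 and Lgals4, and in 35.7% of all windows.

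Lgals3 (ENSMUSG00000050335.17, chromosome 14, 47367751 to 47386160, plus strand, GRCm38) encodes galectin-3, which is abundant in macrophages. Its levels, in CPM (counts scaled to library size with TMM factors), were 128, 218 and 260 in S303/7A 5, 6 and 7, against 50.6, 52.2 and 49.2 in WT 1, 2 and 3. Every S303/7A library lay above every WT library, and the WT libraries lay close together while the S303/7A libraries were spread. Relative to the WT mean, S303/7A 5 was at 2.53-fold, S303/7A 6 at 4.30-fold and S303/7A 7 at 5.12-fold. The means were 202 ± 67.3 CPM in S303/7A and 50.7 ± 1.49 CPM in WT (SD, n = 3 each). The fitted log2 fold was 1.99 ± 0.24 (SE), a 3.99-fold difference with a 95% interval from 2.70 to 5.88, and the adjusted p was 0.0339 in edgeR's quasi-likelihood test. These values rest on 2839 to 12130 counts per library, for which counting error alone is 0.908% to 1.88%.

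**Figure D1:**
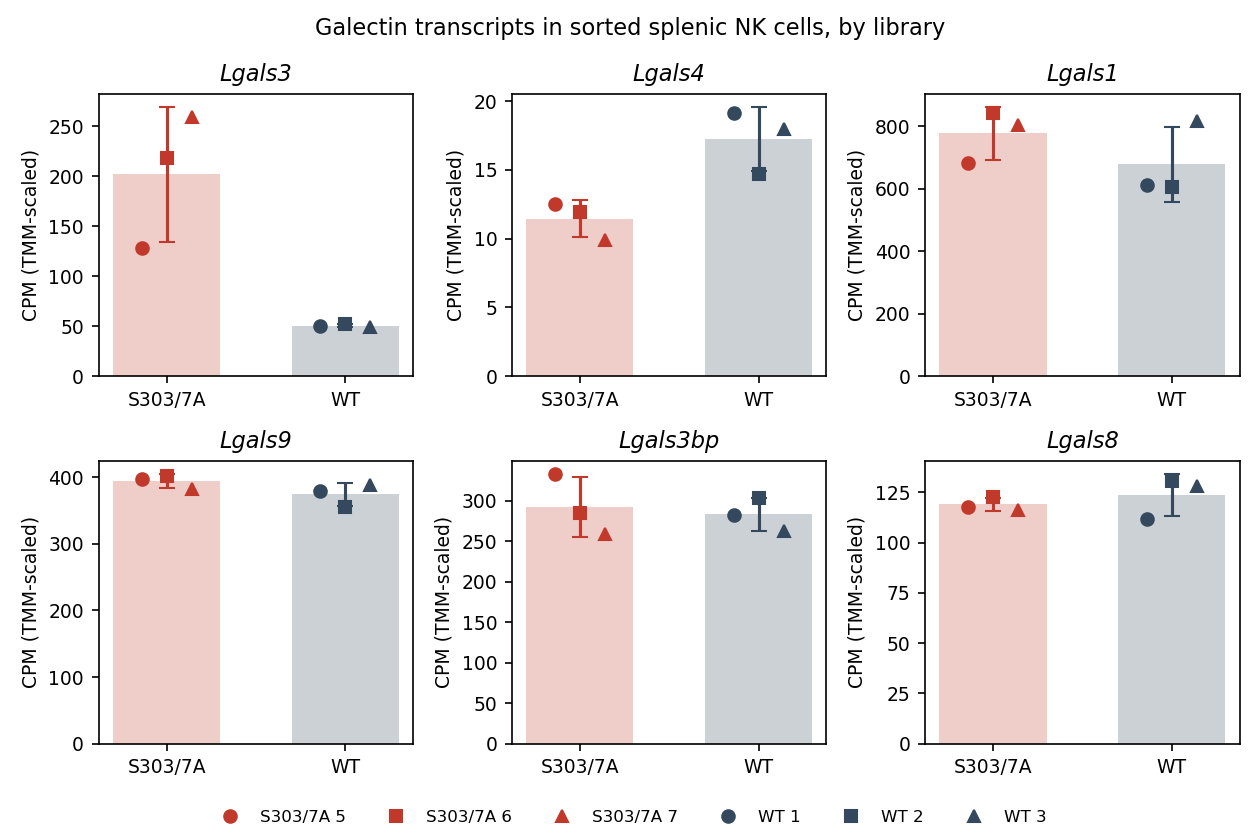
TMM-scaled CPM of the 6 genes in each S303/7A library (red) and each WT library (blue), with bars at the mean of 3 libraries and whiskers of 1 SD. Lgals3 spans 128 to 260 CPM in S303/7A and 49.2 to 52.2 CPM in WT, Lgals4 was lower in every S303/7A library, and the other 4 genes overlapped between the genotypes.

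The size of the Lgals3 difference changed little with the processing, while it was called in 1 of the 6 fits that left out 1 library. Those fits made 5 to 57 calls over all genes, against 60 with every library. It was called without S303/7A 5, with a log2 fold of 2.24 ± 0.10 (SE) and an adjusted p of 0.0048 in edgeR. It was not called without S303/7A 6 (log2 fold 1.94, adjusted p 0.0801 in edgeR) or without S303/7A 7 (1.77, 0.0551). Nor was it called in edgeR without WT 1 (1.99, adjusted p 0.124), WT 2 (2.01, 0.181) or WT 3 (1.97, 0.113). In these 6 fits, in that order, 0.177%, 0.324%, 0.172%, 0.158%, 0.0296% and 0.123% of tested genes were called. Limma-voom, which called 0.231% of genes, did not call it with all 6 libraries (1.94 ± 0.27, adjusted p 0.0596), and DESeq2, which called 2.65% of genes, did (2.00 ± 0.22, adjusted p 3.1e-17). It was also called by edgeR with median-of-ratios factors and with library totals, where 0.364% and 0.37% of tested genes were called. So it was with no filter on low counts (0.502%), a filter of 1 CPM in 3 libraries (0.559%), robust estimation (0.425%) and thinning (0.367%). The recovered reads equal the raw counts, so their fit, with 0.364% called, only repeats the reported fit.

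**Figure D2:**
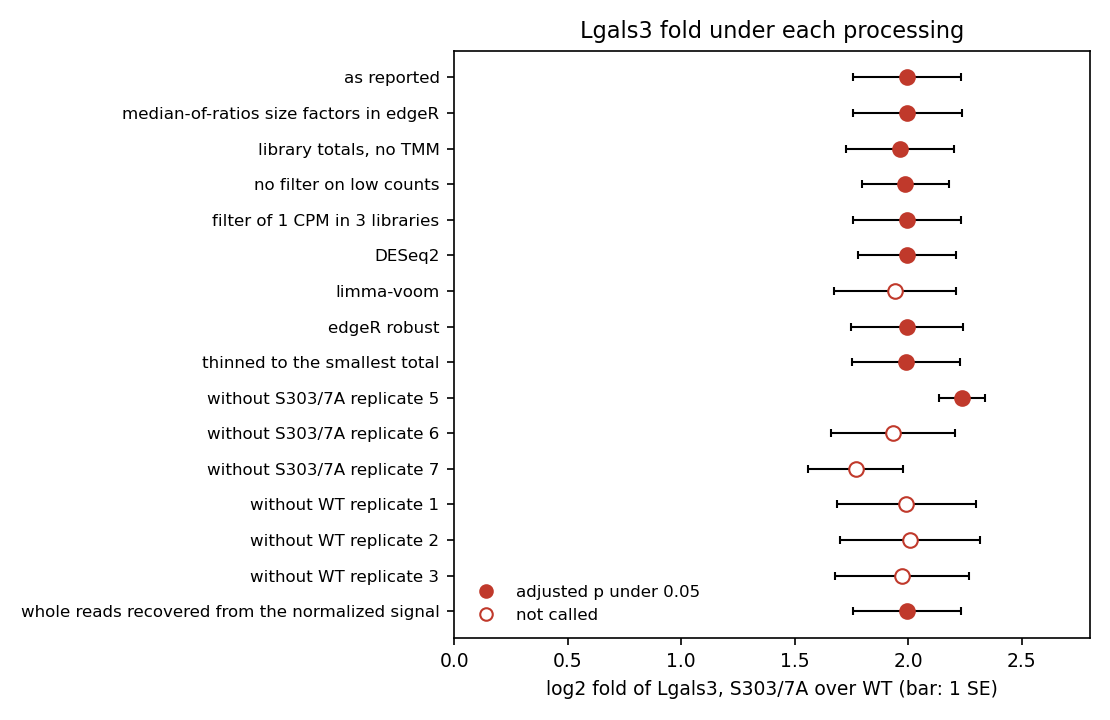
Log2 fold of Lgals3, S303/7A over WT, with whiskers of 1 SE, as reported and under each alternative, and filled points where the adjusted p was under 0.05. All values lie between 1.77 and 2.24, and the open points are limma-voom and 5 of the fits that left out 1 library.

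Lgals4 (ENSMUSG00000053964.17, chromosome 7, 28833854 to 28841708, plus strand) encodes galectin-4, known chiefly from intestinal epithelium. It was the lowest member, at 12.5, 12.0 and 9.91 CPM for S303/7A 5, 6 and 7 and at 19.2, 14.7 and 17.9 CPM in WT 1, 2 and 3. Every S303/7A library lay below every WT library. The log2 fold was -0.59 ± 0.17 (SE), a ratio of 0.664 with a 95% interval from 0.505 to 0.872, and it was not called by edgeR (adjusted p 0.303) or DESeq2 (adjusted p 0.0524). With Lgals3 above, it makes 2 of 6 members whose genotypes did not overlap, which held for 16.0% of all tested genes, 7.64% with S303/7A above and 8.37% with S303/7A below. The counts of Lgals4 ranged from 463 to 1319 per library, with a counting error of 2.75% to 4.65%.

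Lgals1 (ENSMUSG00000068220.6, chromosome 15, 78926725 to 78930465, plus strand), which encodes galectin-1, was at 682, 845 and 806 CPM for S303/7A 5, 6 and 7 and at 612, 605 and 818 CPM in WT 1, 2 and 3. WT 3 was within the S303/7A range, so the genotypes overlapped. The log2 fold was 0.20 ± 0.14 (SE), with a 95% interval of the ratio from 0.918 to 1.43 and an adjusted p of 0.742 in edgeR.

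Lgals9 (ENSMUSG00000001123.15, chromosome 11, 78962974 to 78984946, minus strand) encodes galectin-9, a ligand of the checkpoint receptor TIM-3. Its levels were 397, 402 and 383 CPM for S303/7A 5, 6 and 7 and 379, 356 and 389 CPM in WT 1, 2 and 3. The genotypes overlapped, and the log2 fold was 0.07 ± 0.06 (SE), with a 95% interval of the ratio from 0.953 to 1.16 and an adjusted p of 0.794 in edgeR.

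Lgals8 (ENSMUSG00000057554.13, chromosome 13, 12439415 to 12464944, minus strand) encodes galectin-8, which marks damaged endosomes for autophagy. It was at 118, 123 and 116 CPM for S303/7A 5, 6 and 7 and at 112, 131 and 128 CPM in WT 1, 2 and 3. All S303/7A libraries lay inside the WT range. The log2 fold was -0.05 ± 0.08 (SE), with a 95% interval of the ratio from 0.842 to 1.10 and an adjusted p of 0.912 in edgeR. Lgals8 shares 155 exonic bases with Heatr1 on the opposite strand, and the strand setting of the counting is not given in the sources used here, so reads from that stretch are uncertain. Heatr1 itself averaged 77.0 CPM in S303/7A and 75.3 CPM in WT.

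Lgals3bp (ENSMUSG00000033880.11, chromosome 11, 118392751 to 118402092, minus strand), the gene of the galectin-3 ligand, was at 332, 285 and 259 CPM for S303/7A 5, 6 and 7 and at 282, 304 and 263 CPM in WT 1, 2 and 3. S303/7A held both the highest and the lowest value. The log2 fold was 0.05 ± 0.10 (SE), with a 95% interval of the ratio from 0.871 to 1.22 and an adjusted p of 0.946 in edgeR. Among the 3 S303/7A libraries Lgals3bp was lowest in S303/7A 7, where Lgals3 was highest, and highest in S303/7A 5, where Lgals3 was lowest. Lgals4 held the same order in these libraries. Over all 6 libraries the Pearson correlation of log2 CPM between Lgals3 and Lgals3bp was -0.09, so the order in S303/7A is a description only.

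**Figure D3:**
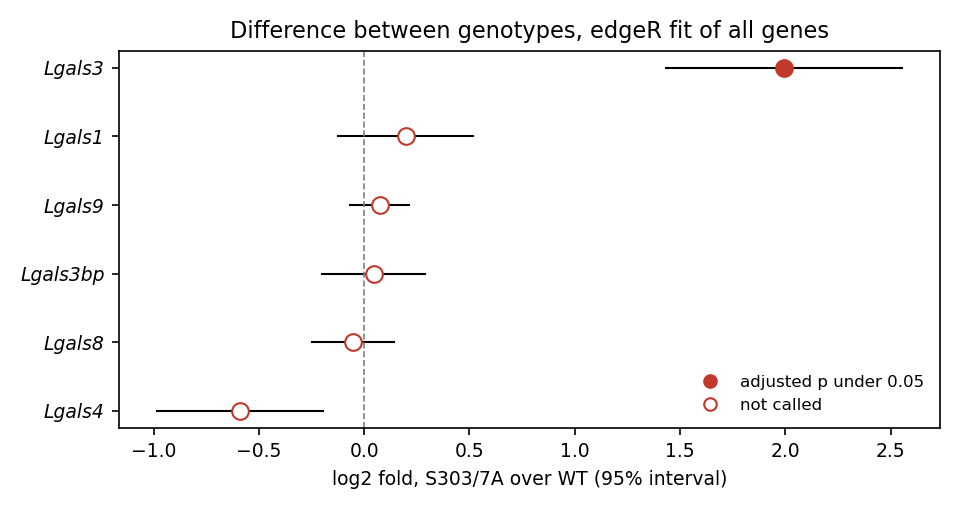
Log2 fold, S303/7A over WT, of the 6 genes with 95% intervals from the edgeR fit of all genes, filled where the adjusted p was under 0.05. The interval of Lgals3 begins at 1.43, that of Lgals4 lies below 0 without a call over all genes, and the intervals of the other 4 genes include 0.

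To compare levels between genes, CPM were divided by the exonic length of each gene in kilobases, which was 903 bases for Lgals1, 2137 for Lgals9, 2847 for Lgals3bp, 3688 for Lgals8, 1858 for Lgals3 and 2315 for Lgals4 in GENCODE M21. Lgals1 had the highest level per kilobase in all 6 libraries, 861 ± 94.1 CPM per kb in S303/7A and 751 ± 134 in WT (SD, n = 3 each). Lgals9 followed with 184 ± 4.79 CPM per kb in S303/7A and 175 ± 7.95 in WT. Lgals3bp was at 103 ± 13.1 CPM per kb in S303/7A and 99.4 ± 7.15 in WT. These 3 genes kept this order in 6 of 6 libraries.

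The place of Lgals3 in the order of levels differed with genotype. Per kilobase it reached 68.9, 117 and 140 CPM in S303/7A 5, 6 and 7, above Lgals8 (31.6 to 33.3 CPM per kb) in all 3 libraries and overlapping with Lgals3bp (91.0 to 117 CPM per kb). In WT it was at 26.5 to 28.1 CPM per kb, below Lgals8 (30.3 to 35.4 CPM per kb) in all 3 libraries. Lgals4 was last in every library, at 4.95 ± 0.591 CPM per kb in S303/7A and 7.46 ± 0.999 in WT. Of all counts of the 6 members, Lgals3 took 7.67%, 11.6% and 14.2% in S303/7A 5, 6 and 7, against 3.48%, 3.57% and 2.96% in WT 1, 2 and 3. The members together took 0.166% to 0.186% of all counts in S303/7A and 0.146% to 0.168% in WT.

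**Figure D4:**
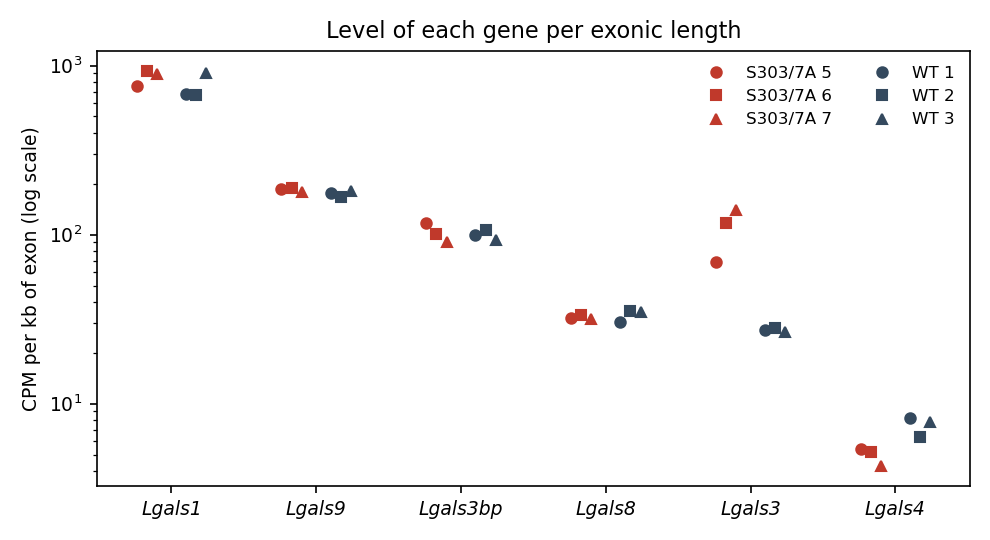
TMM-scaled CPM per kilobase of exon, on a log scale, for each gene in each S303/7A library (red) and WT library (blue). Lgals1 is highest and Lgals4 lowest in every library, while Lgals3 lies above Lgals8 in S303/7A and below it in WT.

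Of the other galectin names listed for the mouse, 5 were in the table and 1 passed the filter. That gene was Lgalsl, which encodes a galectin-related protein, at 12.0, 11.3 and 10.0 CPM for S303/7A 5, 6 and 7 and at 16.5, 19.1 and 16.5 CPM in WT 1, 2 and 3. Every S303/7A library lay below every WT library, which held for 8.37% of all tested genes. The log2 fold of -0.64 ± 0.15 (SE) was not called (adjusted p 0.198 in edgeR). Lgals2 had 0 counts over each genotype, which allows up to 0.0226 CPM over the S303/7A libraries and 0.0157 CPM over the WT libraries at a floor of 3 counts. Lgals12, known from fat tissue, had 7 counts over S303/7A and 0 over WT. Lgals7, a keratinocyte gene, had 7 counts over S303/7A and 37 over WT, and Grifin, a lens gene, had 14 over S303/7A and 59 over WT. These floors and errors are of counting alone, and reads that carry no molecular identifier are not independent molecules.

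Genes whose products carry or build galectin ligands were measured next, from lists of the pathway. Of 23 tested counter-receptors of galectins 0 were called in edgeR, DESeq2 or limma-voom and 3 had an unadjusted p under 0.05, with a median log2 fold of 0.01. The largest folds among those with a mean log2 CPM of at least 2 were of Lamp1 (0.53 ± 0.27, SE), a lysosomal membrane glycoprotein, Cd7 (0.32 ± 0.10), a galectin-1 receptor on human T cells, and Cd44 (0.28 ± 0.08), the hyaluronan receptor. Cd7 averaged 955 ± 88.4 CPM in S303/7A and 765 ± 80.3 CPM in WT, and Cd44 381 ± 34.3 CPM in S303/7A and 314 ± 6.53 CPM in WT (SD, n = 3 each). For Lamp1, Cd7 and Cd44 the S303/7A libraries lay above the WT libraries, and none was called (adjusted p 0.613, 0.350 and 0.282 in edgeR). These genes were picked for their folds, and S303/7A lay above WT in this way for 7.64% of all tested genes.

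Of 28 tested glycosyltransferase and sugar transporter genes that build galectin ligands, 0 were called in edgeR or limma-voom, 2 in DESeq2 (B4galt3 and B3gnt8), and 3 had an unadjusted p under 0.05. Their median log2 fold was 0.05. B3gnt8, which takes part in building poly-N-acetyllactosamine, averaged 2.11 ± 0.416 CPM in S303/7A and 4.87 ± 1.67 CPM in WT (SD, n = 3 each), and B4galt3 43.3 ± 3.85 CPM in S303/7A and 32.1 ± 1.82 CPM in WT. The largest folds among those with a mean log2 CPM of at least 2 were of the sialyltransferase gene St6gal1 (-0.61 ± 0.39, SE), whose product caps galactose so that several galectins no longer bind, of St3gal2 (0.49 ± 0.22), another sialyltransferase, and of Mgat4b (0.49 ± 0.25), a branching enzyme of N-glycans. Of 29 tested genes of the membrane damage response in which galectins act, 0 were called in edgeR, DESeq2 or limma-voom and 4 had an unadjusted p under 0.05, with a median of 0.03. With the same limit on CPM, the largest folds were of the autophagy receptor gene Optn (-0.55 ± 0.29), of Rragc (0.39 ± 0.50), a GTPase that recruits mTORC1 to lysosomes, and of Gabarapl1 (-0.39 ± 0.14), an ATG8 family member. Below that limit, and chosen after its values were seen, Trim16, whose product works with galectin-3 at damaged lysosomes in human cells, was at 1.21, 1.81 and 0.985 CPM for S303/7A 5, 6 and 7 and at 0.571, 26.8 and 37.5 CPM for WT 1, 2 and 3. WT 1 lay below the S303/7A libraries and the other WT libraries far above them, and the log2 fold of -4.02 ± 1.21 (SE) was not called (adjusted p 0.341 in edgeR).

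The genes most like Lgals3 over the 6 libraries, by Pearson correlation of log2 CPM, were Cep120 (0.994), a centrosomal protein gene, Ints10 (0.992), an Integrator subunit, Zfp800 (0.989), a zinc finger gene, and Haus8 (0.985), an augmin subunit. Their folds were far smaller than that of Lgals3, with log2 values from 0.11 for Ints10 to 0.31 for Zfp800, and none was called. For Lgals4 they were Dnajc4 (0.995), a J-domain protein gene, Erbb3 (0.981), a receptor of the EGF receptor family, and Hspe1 (0.976), the mitochondrial HSP10 gene. For Lgals1 they were Zc3h13 (0.992), Nemf (0.982) and Sema4c (0.981), for Lgals9 Golga7 (0.995), Ctps2 (0.990) and Stk38 (0.986), for Lgals8 Pdss2 (0.991), Pwp2 (0.990) and Klhl7 (0.985), and for Lgals3bp Rp2 (0.988), Plcg2 (0.980) and Krit1 (0.979). The libraries fall into 2 genotypes and these genes were picked from among all that passed that level, so the coefficients describe likeness only.

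No called gene lay close to Lgals3. Within 1 Mb on each side 20 genes were tested and 0 were called in edgeR, with 2 at an unadjusted p under 0.05 and a median log2 fold of -0.02. Within 5 Mb 1 of 73 tested genes was called, Supt16, which encodes a subunit of the histone chaperone FACT and lies 4774 kb away. Supt16 averaged 195 ± 51.7 CPM in S303/7A and 49.3 ± 3.09 CPM in WT (SD, n = 3 each), with a log2 fold of 1.99 ± 0.19 (SE). Of 152 tested genes within 5 Mb of Lgals9, 2 were called, both lower. These were the chemokine genes Ccl6 (-1.12 ± 0.14) and Ccl9 (-1.16 ± 0.16), 4603 and 4588 kb away. Within 5 Mb of Lgals1, Lgals3bp, Lgals4 and Lgals8, 0 of 208, 178, 192 and 34 tested genes were called in edgeR. At an unadjusted p under 0.05 there were 21, 20, 17 and 6 of them, or 10.1%, 11.2%, 8.85% and 17.6%, against 9.68% of all tested genes. Within 5 Mb of Lgals3 and Lgals9, 11 (15.1%) and 19 (12.5%) tested genes had an unadjusted p under 0.05. Over all tested genes 0.364% were called in edgeR.

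**Figure D5:**
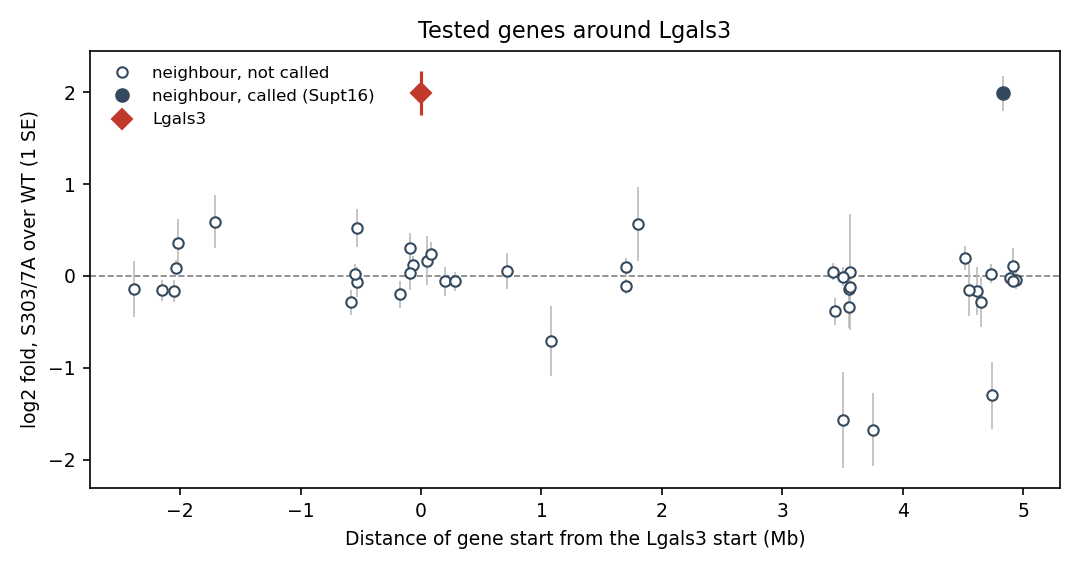
Log2 fold, S303/7A over WT, with whiskers of 1 SE, of Lgals3 and of 43 tested genes within 5 Mb of it whose mean log2 CPM was 2 or more, against the distance of their starts from the Lgals3 start. Supt16 is the called neighbour, and the uncalled ones lie between -1.67 and 0.59.

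Total counts were 43189163 to 47248039 in S303/7A and 53845572 to 72736406 in WT, so depth differed with genotype, and after thinning to equal totals the log2 fold of Lgals3 was 1.99. The Hsf1 level was 42.2 to 76.9 CPM in S303/7A and 83.2 to 108 CPM in WT, lower in every S303/7A library. Its log2 fold of -0.67 ± 0.22 (SE) was not called (adjusted p 0.386 in edgeR). The mutations are known here only as amino acid changes, so the Hsf1 level does not check the labels. Why the Hsf1 level differed was not tested. All 14 NK markers were tested, with a summed level of 27754 to 28796 CPM in S303/7A and 26337 to 30713 CPM in WT, and 1 was called lower in edgeR, the NK1.1 antigen gene Klrb1c. Of these markers 4 had an unadjusted p under 0.05, and DESeq2 called Klrb1c, Klrk1 and Klre1. The log2 fold was above 0 for 9 of the 14 NK markers, with a median of 0.10.

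Because macrophages and other cells of the spleen also make galectins, markers of 12 other cell types were set beside the members. In bulk samples a different number of cells of a type and a different amount of RNA per cell cannot be told apart. Of 14 tested monocyte and macrophage markers 0 were called in edgeR, DESeq2 or limma-voom and 0 had an unadjusted p under 0.05. Their median log2 fold was -0.20, and 5 of the 14 had a fold above 0. Their summed level was 684 to 707 CPM in S303/7A and 714 to 798 CPM in WT, lower in every S303/7A library. Most of it was Ccr2 (631 CPM on average in S303/7A and 676 CPM in WT), which NK cells express too. C1qa, a defining gene of macrophages, had 0.116 to 0.856 CPM in S303/7A and 0.238 to 1.16 CPM in WT. Cd68 and Csf1r averaged 11.8 and 5.89 CPM in S303/7A and 10.3 and 4.72 CPM in WT, with overlap between the genotypes. Adgre1 averaged 3.52 CPM in S303/7A and 6.84 CPM in WT, also with overlap. Lyz2 averaged 17.2 CPM in S303/7A and 22.8 CPM in WT, and was lower in every S303/7A library. The part of these cells in the Lgals3 difference was not tested.

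The summed levels of several other marker lists were below those of every WT library in every S303/7A library, as the levels of Lgals4 and Lgalsl were, though few single genes were called. The summed level of 10 basophil markers, all tested, was 307 to 417 CPM in S303/7A and 509 to 986 CPM in WT, with a median log2 fold of -1.05, and 1 was called lower in edgeR, the IgE receptor gene Ms4a2, while 8 had an unadjusted p under 0.05 and DESeq2 called 6. Of 12 tested platelet markers, with a median of -0.91, 1 was called lower in edgeR, Vwf, 10 had an unadjusted p under 0.05 and DESeq2 called 8, and the summed level of that list was 161 to 224 CPM in S303/7A and 343 to 381 CPM in WT. Epithelial markers summed to 55.8 to 64.2 CPM in S303/7A and 97.5 to 142 CPM in WT. Nearly all of that was Cdh1, at 53.6 to 62.9 CPM in S303/7A and 94.9 to 140 CPM in WT, while Krt8, Krt19, Cdx1 and Cdx2 had no count in any library. Neutrophil markers summed to 32.8 to 39.2 CPM in S303/7A and 51.6 to 89.0 CPM in WT, and stromal and endothelial markers to 1.44 to 3.98 CPM in S303/7A and 4.00 to 8.54 CPM in WT. None of 6 neutrophil, 4 stromal and 3 epithelial markers tested was called in edgeR, where 2, 0 and 1 had an unadjusted p under 0.05, and DESeq2 called Cxcr2 and Cdh1. The part of these cells in the Lgals4 and Lgalsl differences was not tested.

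T cell markers summed to 287 to 315 CPM in S303/7A and 237 to 285 CPM in WT, higher in every S303/7A library. Of 11 tested T cell markers 8 had a log2 fold above 0, with a median of 0.19. The summed levels of B cell markers (37.7 to 92.2 CPM in S303/7A and 21.7 to 122 CPM in WT), plasma cell markers (317 to 360 CPM in S303/7A and 289 to 384 CPM in WT), dendritic cell markers (15.02 to 23.7 CPM in S303/7A and 11.7 to 21.7 CPM in WT), innate lymphoid cell markers (699 to 776 CPM in S303/7A and 574 to 744 CPM in WT) and erythroid markers (438 to 535 CPM in S303/7A and 381 to 494 CPM in WT) overlapped between the genotypes. None of the markers in these 6 lists was called in edgeR, where 3 T cell, 2 innate lymphoid and 3 erythroid markers had an unadjusted p under 0.05, and DESeq2 called Trbc2, Gata1, Klf1 and Car1.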

How the data were processed

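RNA was measured in sorted splenic NK cells of 3 S303/7A and 3 WT mice. Per the labels' protocols, the SMART-seq HT kit was used for the libraries. The submitters' processing notes name STAR, featureCounts, Trimmomatic and DESeq2, with build GRCm38 (mm10), and their versions, the annotation and the strand setting were not given. The files the authors deposited hold raw counts per gene and a normalized signal per gene, which is the count divided by 1 size factor per library: multiplying back gave whole reads, within 0.01, for 100% of values in all libraries, equal to the raw counts, and the count test on them made the same 60 calls.

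The test was run on the raw counts in edgeR 4.0.16 under R 4.3.3: filterByExpr (minimum count 10, minimum total 15), TMM factors, and the quasi-likelihood test of genotype over all 6 libraries, with Benjamini-Hochberg adjustment over 16480 genes and a threshold of 0.05. The SE is the log2 fold divided by the square root of F, and 95% intervals use its degrees of freedom. CPM are TMM-scaled. The test was checked on simulated counts in which each gene had the same dispersion in both genotypes. That check does not cover a spread as unequal as that of Lgals3. Limma-voom (limma 3.58.1), DESeq2 1.42.0, other scalings and filters, thinning and leaving out each library were alternatives. Replicate numbers are not shared between genotypes. With 3 mice a genotype, p-values set the difference against an estimate of the spread between mice. In edgeR that estimate is shared by both genotypes and moderated over all genes.

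Positions, overlaps and exonic lengths are from GENCODE M21 (GRCm38), which gave 1 position to 16081 of the tested genes. BLAST 2.17.0 of the members' transcripts found no copy of a member (at least 90% identity over 100 bases) among the counted genes other than the overlap with Heatr1. Named genes were all members, for each pathway list up to 3 called genes or else the 3 with the largest fold at a mean log2 CPM of at least 2, the 5 (Lgals3) or 3 genes most like each member, and called genes within 5 Mb. Some genes that this rule or the lists take are not reported here. In marker lists, called genes were named and the others counted, and the genes given at single levels there, and those called in DESeq2 alone, were chosen after their values were seen. The members and lists were chosen with earlier results of these data known.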

Additional observations from a re-analysis of the deposited data

How the results depend on the processing

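No paired analysis was possible because the genotypes share no replicate number. The 60 calls became 171 without a filter on low counts and 437 in DESeq2, each including all 60, and 38 in limma-voom, 35 of them shared. Leaving out 1 library gave 5 (without WT 2) to 57 calls. The log2 fold of Lgals3 was 1.94 in limma-voom, not called, and 1.77 to 2.24 with 1 library left out, called in 1 of 6 such fits. It was called in the other 8 alternatives that kept all libraries. Among these, the fit of recovered reads only repeats the reported fit, since those reads equal the raw counts. The fold of Lgals3bp ranged from -0.057 to 0.12 with 1 library left out and was below 0 without S303/7A 5 (-0.057) and WT 3 (-0.0043). Lgals1 and Lgals9 stayed above 0, and Lgals4 and Lgals8 below 0, uncalled, in all 15 alternatives. With 1 library left out, Lgals1 ran from 0.11 to 0.35, Lgals4 from -0.71 to -0.50, Lgals8 from -0.13 to -0.02 and Lgals9 from 0.03 to 0.10. The cause of these differences was not tested. Members had at least 463 counts per library. For Lgals3 in WT and Lgals8 in S303/7A the counting error is not small beside the spread between mice.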

Other observations

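The libraries of S303/7A differed more in Lgals3 than those of WT. The highest S303/7A library was 2.03 times the lowest, against 1.06 times in WT, while the other 5 members had ratios of 1.05 to 1.28 in S303/7A and 1.09 to 1.35 in WT. Of 9975 genes with a mean log2 CPM of at least 2, 7.28% had a ratio in S303/7A at least as large as that of Lgals3, and 9.71% a ratio in WT no larger. Both held for 14 other genes. The limits were the ratios of Lgals3 itself, taken after they were seen, so these counts are a description only. The median ratio over the 9975 genes was 1.22 in S303/7A and 1.19 in WT. Which mouse or cell property goes with the level of Lgals3 was not tested.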
